A study of Drosophila melanogaster with 47 samples.

Results

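The genes described here are 44 genes of cell cycle and DNA replication in Drosophila melanogaster, of 11964 genes in the tables used. They were chosen by name, with earlier results of these data known. They fall into 12 genes of DNA replication, 20 of mitosis and cytokinesis, and 12 regulators of cell cycle progress. All 44 were found in each of the 3 count tables used. The genes lie on chromosomes 2R (16 genes), 2L (9), 3R (8), 3L (7) and X (4).

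RNA was measured in midguts of adult females in 8 groups of 4 libraries. Sorted progenitors were esg+ cells from mated and from unmated esg-Gal4 flies, and whole guts came from mated and unmated flies of the same genotype. A further set of whole guts came from mated and unmated flies with the genotype Actin-Gal4/ EcR RNAi, and from mated and unmated Actin-Gal4 controls. Mated females had spent 48 hours with an equal number of males, while the unmated ones, matched for age and genotype, had been apart from males since eclosion. The Actin-Gal4 flies, both with and without the RNAi, were held for 5 days at 29 °C before mating at 25 °C. A whole gut library pooled 15 guts and a sorted library 100 to 150 guts, so that each replicate is a pool and p-values measure the spread between pools. The Actin-Gal4 driver acts in all cells, and esg-Gal4 acts in intestinal stem cells and their undifferentiated daughters. The age in days is not given in the sources used here.

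In the fly midgut the intestinal stem cells are the main dividing cells. Their daughters leave the mitotic cycle and become enterocytes or enteroendocrine cells, and enterocytes pass through rounds of endoreplication, in which DNA is copied without mitosis. Replication genes such as those of the MCM helicase can thus be used both by dividing and by endoreplicating cells, whereas the mitotic cyclins and the machinery of spindle and cleavage furrow are used in division. Mating in females is known to raise stem cell division and to enlarge the midgut.

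Depth, as summed gene counts, ran from 31333743 to 44215773 for mated progenitors, from 34227107 to 37208769 for unmated progenitors, from 16997582 to 24527185 for mated whole guts, from 13712654 to 22340841 for unmated whole guts, and from 19371149 to 29800901 over the Actin-Gal4 libraries. Levels are given as CPM, a gene's counts scaled by a library size that was adjusted with the trimmed mean of M values (TMM). The progenitor label held against its markers, whose summed level was 4356 to 5891 CPM in mated progenitors and 4749 to 5745 CPM in unmated ones, against 109.7 to 189.6 CPM in mated whole guts and 92.8 to 179.5 CPM in unmated ones. The RNAi label was not borne out by the transcript of its target: EcR, the gene of the ecdysone receptor, stood at 14.7, 12.5, 12.5 and 11.8 CPM in the unmated libraries labelled EcR RNAi and at 7.17, 9.47, 7.43 and 8.23 CPM in unmated controls, higher by 0.67 (SE 0.11, adjusted p = 0.00125) on the log2 scale. After mating it stood at 8.22, 9.62, 11.02 and 9.39 CPM where EcR RNAi was the label and at 7.24, 7.90, 9.45 and 8.55 CPM in controls, at 0.21 (SE 0.12, adjusted p = 0.34). Some libraries stood apart: whole gut mated libraries 1 and 2 and unmated library 2 carried ovary germline transcripts, and unmated progenitor library 1 was the lowest of its group in 36 of the 44 genes. Unmated progenitor library 4 was next lowest in their summed level, at 987 CPM per kb, near library 2 at 1046. Results that rest on the 3 whole gut libraries, or on unmated progenitor libraries 1 and 4, are given with and without them.

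Per kilobase of exon, the most abundant of the 44 transcripts in mated progenitors were RnrS, the small subunit of ribonucleotide reductase, at 118.7 ± 16.9 CPM per kb, PCNA, the sliding clamp of DNA polymerase, at 91.2 ± 13.2, and geminin, the inhibitor of replication licensing, at 79.2 ± 2.69 (SD, n = 4). Top2, DNA topoisomerase II, and the E2F partner Dp followed at 76.2 ± 5.03 and 62.9 ± 1.63 CPM per kb. Neighbours in this order were mostly within each other's spread, as PCNA, geminin and Top2 were. The lowest was cid, the centromeric histone, at 4.12 ± 1.19 CPM per kb, next to CycE, the cyclin of S phase entry, at 5.81 ± 0.965. In mated whole guts RnrS, Dp, geminin and E2f1, the activating E2F factor, led with 21.1 ± 2.84, 19.5 ± 1.17, 15.3 ± 2.30 and 12.6 ± 0.879 CPM per kb. The lowest there was thr, a regulatory subunit gene of separase, at 0.355 ± 0.201.

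Summed over the 20 mitosis genes, the level was 438 to 481 CPM per kb in mated progenitors and 272 to 409.6 in unmated ones. It was 27.1 to 40.97 in mated whole guts and 26.6 to 36.9 in unmated ones, 27.3 to 34.3 in mated guts labelled EcR RNAi and 30.0 to 31.8 in unmated ones, and 24.9 to 38.0 in mated Actin-Gal4 controls and 25.5 to 30.0 in unmated ones. The 12 replication genes summed to 467 to 564 CPM per kb in mated progenitors and 329 to 506 in unmated ones, against 56.7 to 67.9 in mated whole guts and 48.7 to 67.5 in unmated ones. In both sets every progenitor library lay several times above every whole gut library. The ratio of the replication sum to the mitosis sum was low in the sorted cells, at 1.01 to 1.26 in mated progenitors and 1.21 to 1.35 in unmated ones, against 1.65 to 2.09 in mated whole guts and 1.59 to 2.31 in unmated ones. In the Actin-Gal4 guts it was 2.21 to 3.19 over the 16 libraries. The tables were scaled separately, so levels set across them are descriptions.

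**Figure D1:**
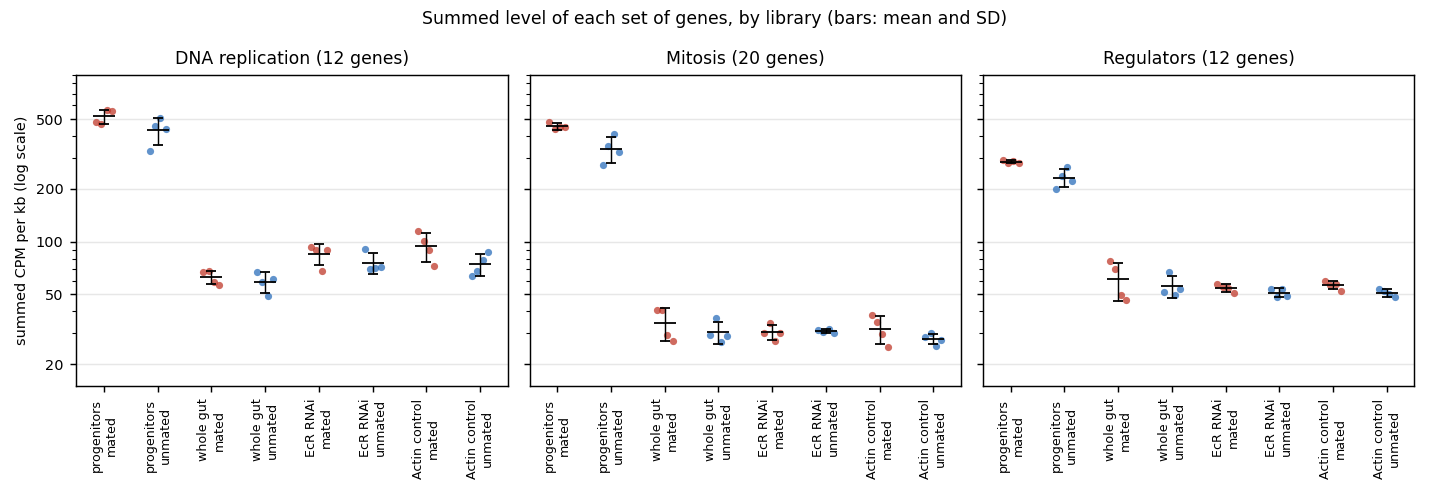
Summed level of the 12 replication, 20 mitosis and 12 regulator genes in CPM per kilobase of exon on a log axis, 1 point per library, mated in red and unmated in blue, with mean and SD of 4 libraries as black bars. The progenitor libraries lie above every whole gut library in all 3 panels, and the mated progenitors lie at 438 to 481 in the mitosis panel, above the unmated ones at 272 to 409.6.

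In progenitors, mating went with higher transcripts of most mitosis genes, of the mitotic cyclins CycA, CycB and CycB3, and of 3 replication genes. Of the 44 genes, 26 rose and 2 fell (quasi-likelihood F test of edgeR, with p adjusted by Benjamini and Hochberg's method over all genes tested and a threshold of 0.05), in a comparison in which 19.1% of all 9025 genes were called higher and 21.1% lower. Their median log2 fold change was 0.41, against 0.02 over all genes tested. Since the genes were chosen with earlier results of these data known, these counts and shares are descriptions. The rises took in 16 of 20 mitosis genes, 7 of 12 regulators and 3 of 12 replication genes, and the 2 that fell were pbl and E2f1. In 22 of the 44 genes every mated library lay above every unmated one, which held for 21.5% of all genes. Fold sizes were modest, the largest being 1.87-fold for Klp67A. In bulk libraries, a change in the share of dividing cells and a change in RNA per cell cannot be told apart.

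Of the replication genes, Mcm2, a subunit of the MCM helicase (FBgn0014861; dm6 chromosome 3R, 8264970 to 8267924, plus strand), had 61.8, 59.0, 64.1 and 63.9 CPM in mated progenitors and 32.3, 47.2, 53.4 and 40.9 CPM in unmated ones. All 4 mated libraries lay above the unmated ones, and the log2 fold change was 0.52 (SE 0.13, adjusted p = 0.0171). Mcm6, another subunit of the same ring, had 95.4, 89.6, 93.0 and 99.4 CPM in mated progenitors and 54.3, 77.8, 89.7 and 64.6 CPM in unmated ones. Its groups touched only at mated library 2 and unmated library 3, and the change was 0.40 (SE 0.14, adjusted p = 0.0432). For geminin the libraries read 82.1, 82.2, 83.5 and 88.2 CPM in mated progenitors and 49.8, 70.7, 75.8 and 66.0 CPM in unmated ones, a change of 0.36 (SE 0.12, adjusted p = 0.0359). PCNA, which had 89.0, 82.5, 107 and 112 CPM in mated progenitors and 67.3, 91.2, 95.8 and 89.4 CPM in unmated ones, overlapped between the groups and did not pass the test, at 0.18 (95% interval -0.11 to 0.48, adjusted p = 0.276). The other 8 replication genes, which are Mcm3, Mcm5, Mcm7, the helicase subunit dpa (Mcm4), the licensing factor dup (Cdt1), the origin recognition subunit Orc1, and RnrL and RnrS, had log2 fold changes between 0.11 (RnrL) and 0.42 (Mcm5), and none passed the test. All 12 replication values were above 0. The mean levels of these 8 ran from Orc1, with 20.6 ± 4.75 CPM in mated progenitors and 15.7 ± 4.18 CPM in unmated ones, to RnrS, with 189 ± 26.9 CPM in mated progenitors and 162 ± 32.5 CPM in unmated ones (SD, n = 4 each).

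The 20 mitosis genes had a median log2 fold change of 0.53, the regulators one of 0.48 and the replication genes one of 0.33. Klp67A, a kinesin of the mitotic spindle (FBgn0004379; dm6 chromosome 3L, 9362636 to 9367046, minus strand), had 32.6, 30.4, 28.5 and 28.8 CPM in mated progenitors and 11.9, 17.1, 21.1 and 14.1 CPM in unmated ones. The groups did not overlap, and the log2 fold change of 0.90 (SE 0.16, adjusted p = 0.00479) was the largest of the 44. The anillin gene scra, whose product organises the cleavage furrow, read 222, 204, 215 and 203 CPM in mated progenitors and 139, 159, 184 and 156 CPM in unmated ones, a change of 0.41 (SE 0.09, adjusted p = 0.00817). ncd, a minus-end directed kinesin that focuses spindle poles, read 76.9, 75.05, 68.7 and 66.2 CPM in mated progenitors and 38.6, 53.4, 58.3 and 46.9 CPM in unmated ones, a change of 0.54 (SE 0.12, adjusted p = 0.0101). In all these genes unmated library 1 was lowest and unmated library 3 nearest to the mated ones.

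Genes of the same machines rose alongside. Of the cytokinesis genes, pav, the kinesin of the central spindle, changed by 0.64 (SE 0.15, adjusted p = 0.0132), tum, its RacGAP partner, by 0.46, and feo, the microtubule bundler of the midzone, by 0.63 on the log2 scale. The chromosomal passenger genes aurB, Incenp and borr, which encode Aurora B kinase, INCENP and Borealin, rose by 0.53, 0.42 and 0.58. The mitotic kinases polo and aurA rose by 0.33 and 0.53, and BubR1 of the spindle checkpoint by 0.42. The 3 genes of anaphase onset rose too: fzy, the Cdc20 activator of the anaphase promoting complex, by 0.55, the securin pim by 0.76 and the separase subunit gene thr by 0.74. Top2 rose by 0.38. The adjusted p-values of these 12 genes other than pav lay between 0.0135 (aurA) and 0.0375 (polo). The kinesin gene Klp61F had a log2 fold change of 0.23 (95% interval -0.05 to 0.52, adjusted p = 0.158), the checkpoint kinase Bub1 of 0.06 (95% interval -0.08 to 0.19, adjusted p = 0.465) and cid of 0.86 (95% interval 0.11 to 1.60, adjusted p = 0.064), and none of these 3 passed the test. Mean levels of the mitosis genes ran from cid, with 4.18 ± 1.21 CPM in mated progenitors and 2.30 ± 0.939 CPM in unmated ones, to Top2, with 399.5 ± 26.4 CPM in mated progenitors and 306 ± 56.1 CPM in unmated ones (SD, n = 4 each).

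A single mitosis gene went the other way. pbl, the RhoGEF that starts furrow ingression (FBgn0003041; dm6 chromosome 3L, 7896109 to 7911954, minus strand), had 67.6, 65.7, 77.4 and 59.5 CPM in mated progenitors and 97.1, 110.3, 91.5 and 104 CPM in unmated ones. All mated libraries were below all unmated ones, and the log2 fold change was -0.57 (SE 0.09, adjusted p = 0.00375). Its partners in the furrow, tum, pav and scra, rose in the same libraries.

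Among the regulators, the mitotic cyclins rose. CycB, a mitotic cyclin, had 89.2, 77.1, 93.3 and 88.5 CPM in mated progenitors and 43.6, 60.1, 72.3 and 49.1 CPM in unmated ones, with no overlap, which made a log2 change of 0.63 (SE 0.15, adjusted p = 0.0117). CycB3, a related mitotic cyclin, read 27.4, 30.2, 27.1 and 25.3 CPM in mated progenitors and 11.1, 17.4, 22.4 and 13.5 CPM in unmated ones and changed by 0.77 (SE 0.19, adjusted p = 0.0149). CycA, used in S phase and early mitosis, read 143, 140.1, 143 and 139 CPM in mated progenitors and 93.0, 111, 136 and 114 CPM in unmated ones and changed by 0.31 (SE 0.10, adjusted p = 0.0362). The mated libraries of CycA lay within a narrow range, above the 4 unmated ones. stg, the Cdc25 phosphatase that triggers mitosis, read 21.6, 19.96, 29.6 and 29.7 CPM in mated progenitors and 16.1, 17.6, 19.7 and 14.3 CPM in unmated ones, a change of 0.58 (SE 0.16, adjusted p = 0.0202).

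The G1 genes were split. Cdk4, the kinase partner of cyclin D (FBgn0016131; dm6 chromosome 2R, 16579470 to 16585448, plus strand), read 43.6, 37.3, 35.4 and 34.9 CPM in mated progenitors and 21.5, 26.2, 28.6 and 25.3 CPM in unmated ones, without overlap, and changed by 0.57 (SE 0.11, adjusted p = 0.00565). Its cyclin, CycD, spanned 46.5 to 50.9 CPM in mated progenitors and 48.0 to 49.9 CPM in unmated ones, with a log2 change of -0.01 (95% interval -0.14 to 0.12, adjusted p = 0.904). CycE read 24.9, 25.6, 34.8 and 32.04 CPM in mated progenitors and 19.7, 24.1, 31.3 and 24.0 CPM in unmated ones, overlapped, and did not pass the test at 0.24 (95% interval -0.11 to 0.59, adjusted p = 0.231). Its kinase partner Cdk2 had 15.4, 13.2, 13.7 and 14.9 CPM in mated progenitors and 7.15, 10.25, 12.2 and 6.63 CPM in unmated ones and rose by 0.66 (SE 0.19, adjusted p = 0.0242). The gene CG17267 on the opposite strand overlaps 43.9% of the exon bases of Cdk2, and without a stated strand setting reads of the 2 cannot be told apart. dap, the inhibitor of cyclin E-Cdk2, rose by 0.39 (SE 0.10, adjusted p = 0.0204). E2f1 fell, with 199, 198, 189 and 193 CPM in mated progenitors and 226, 219, 205 and 232 CPM in unmated ones and a change of -0.18 (SE 0.06, adjusted p = 0.0377). Its call was lost with upper quartile scaling, with no filter on low counts, and when any 1 library other than unmated library 3 was left out. Cdk1, the mitotic kinase, at 0.67 (95% interval 0.11 to 1.24, adjusted p = 0.0564), and Dp, at 0.19 (95% interval 0.02 to 0.36, adjusted p = 0.0745), did not pass.

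**Figure D2:**
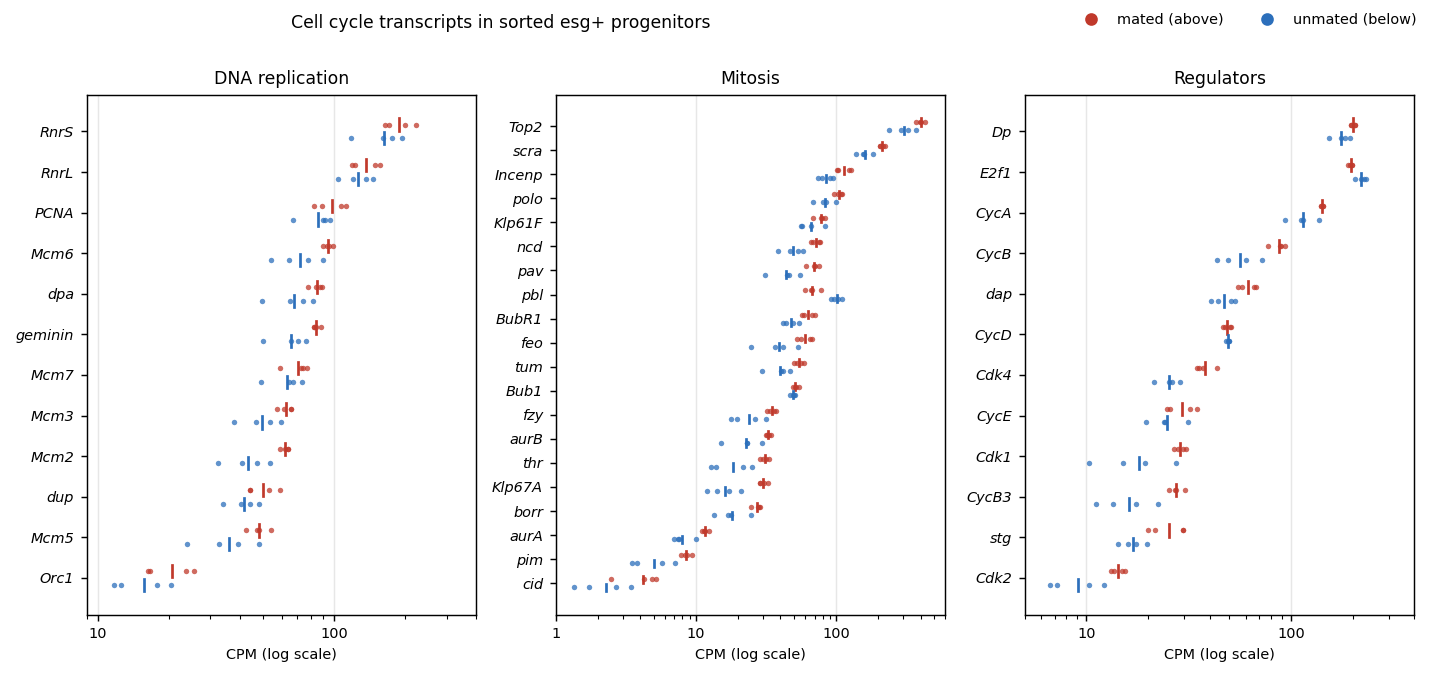
Level of each of the 44 genes in the 8 progenitor libraries in CPM on a log axis, by role, with mated libraries in red above unmated ones in blue and a vertical bar at the mean of 4 libraries. Mated points lie to the right for most mitosis genes, with pbl at 59.5 to 77.4 CPM in mated libraries and 91.5 to 110.3 CPM in unmated ones as the reverse case.

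The size of the change rested on the unmated libraries, which varied more than the mated ones. Over the 44 genes the summed level was 1258, 1187, 1301 and 1291 CPM per kb in mated progenitors and 802, 1046, 1182 and 987 CPM per kb in unmated ones. Unmated library 1 was the lowest of its group for 36 genes and unmated library 3 the highest for 41. Leaving out unmated libraries 1 and 4 together, a choice made after seeing the data, left 9 genes higher (Cdk4, CycB, CycB3, Klp67A, Mcm2, ncd, pav, scra and thr) and 1 lower (pbl), with a median of 0.27. Calls were lost over all genes as well: 417 of 9117 were higher and 885 lower there, against 1724 and 1903 of 9025 with all libraries. With single libraries left out, 12 to 33 genes were higher, the count being 14 without mated library 1 or 4, 12 without unmated library 4 and 33 without unmated library 3. The counts over all genes moved too, with 1093 higher without mated library 1 and 1090 without mated library 4. They were 828 without unmated library 4 and 2105 without unmated library 3. The 11 genes BubR1, Cdk4, CycB, CycB3, Incenp, Klp67A, Mcm2, aurA, ncd, pav and scra stayed called higher, and pbl lower, whichever single library was left out.

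Other transcripts ran with these differences. Hsp23, a small heat shock protein gene, read 716, 341, 335 and 441 CPM in mated progenitors and 12546, 6139, 2503 and 8788 CPM in unmated ones, so that the unmated library lowest in the cell cycle genes was the highest in Hsp23. Dl, the Notch ligand that marks stem cells, read 439, 482, 416 and 353 CPM in mated progenitors and 189, 296, 333 and 182 CPM in unmated ones and changed by 0.76 (SE 0.20, adjusted p = 0.02) on the log2 scale. The gene esg, whose regulatory sequence is used in the esg-Gal4 driver, rose as well, by 0.78 (SE 0.16, adjusted p = 0.00795). The Notch receptor gene N did not pass the test, at 0.05 (SE 0.11, adjusted p = 0.741), and Sox21a, active in differentiating progenitors, changed by -0.28 (SE 0.07, adjusted p = 0.013). Of the 13 progenitor markers, 12 were tested, of which 3 rose and 4 fell, with summed levels of 4356 to 5891 CPM in mated progenitors and 4749 to 5745 CPM in unmated ones. Of 16 enteroendocrine markers 1 rose and 6 fell, with sums of 348 to 709 CPM in mated progenitors and 616 to 981 CPM in unmated ones. Of 13 enterocyte markers tested, 1 rose and 4 fell, with sums of 2588 to 4152 CPM in mated progenitors and 2778 to 5109 CPM in unmated ones. Of 4 ovary follicle markers tested 3 fell, with sums of 3.70 to 9.86 CPM in mated progenitors and 6.999 to 18.2 CPM in unmated ones. The part of these transcripts in the cell cycle result was not tested.

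**Figure D3:**
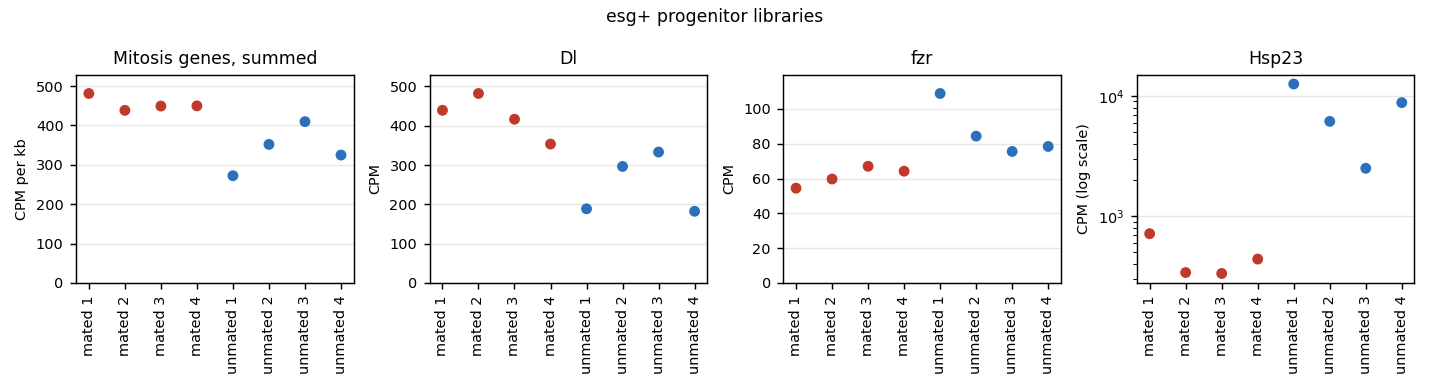
Values in each progenitor library, 4 mated in red and 4 unmated in blue: the summed mitosis genes in CPM per kb, and Dl, fzr and Hsp23 in CPM, Hsp23 on a log axis. Unmated library 1 is lowest in the mitosis sum and highest in fzr and Hsp23, and unmated library 3 is the unmated library nearest to the mated ones in all 4 panels.

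Further genes of the pathway were listed by name, like the members with earlier results of these data known. They were called higher more often than lower in progenitors, where 19.1% of all genes were called higher and 21.1% lower. Of 36 other replication genes 16 rose and 0 fell by edgeR (23 above and 0 below 0 with an unadjusted p under 0.05), of 61 other mitosis genes 40 rose and 5 fell, and of 34 other regulators 12 rose and 2 fell. Their medians were 0.36, 0.40 and 0.20 on the log2 scale, and 2, 8 and 9 of their values lay below 0. Psf3, a subunit of the GINS complex of the replication fork, had 17.7 ± 0.378 CPM in mated progenitors and 13.2 ± 1.22 CPM in unmated ones (SD, n = 4 each), a change of 0.43 (SE 0.09, adjusted p = 0.00827). Mps1, a spindle checkpoint kinase, had 17.8 ± 1.25 CPM in mated progenitors and 11.1 ± 1.85 CPM in unmated ones, a change of 0.68 (SE 0.13, adjusted p = 0.00579). The condensin gene Cap-G had 77.9 ± 7.17 CPM in mated progenitors and 45.8 ± 11.3 CPM in unmated ones, a change of 0.77 (SE 0.16, adjusted p = 0.00846). Cks85A, a small partner of cyclin-dependent kinases, changed by 0.67 (SE 0.12, adjusted p = 0.00498). The genes Orc2 of the origin recognition complex, Caf1-180 of chromatin assembly, the centriole kinase gene SAK, endos and the ATR kinase gene mei-41 also rose. The genes that fell included fzr, the Cdh1-type activator that promotes exit from the mitotic cycle and endoreplication, with 61.4 ± 5.49 CPM in mated progenitors and 86.8 ± 15.2 CPM in unmated ones and a change of -0.50 (SE 0.12, adjusted p = 0.013). The cohesion protector gene mei-S332 changed by -1.62 (SE 0.29, adjusted p = 0.00603) and Myc, the gene of a transcription factor of growth, by -0.59 (SE 0.16, adjusted p = 0.0191). Nipped-B, a cohesin loader gene, changed by -0.28 (SE 0.07, adjusted p = 0.018), and trbl, whose product restrains stg, by -0.57 (SE 0.20, adjusted p = 0.0454).

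In whole guts of the same genotype no change of these genes with mating was detected. Of 43 genes tested, 0 were called by edgeR, in a comparison in which 4.26% of all 8833 genes were called. Before adjustment 1 gene was higher and 0 were lower at p under 0.05, and DESeq2 called 1 higher. That gene was Top2, with 49.2, 51.3, 44.3 and 42.0 CPM in mated whole guts and 36.2, 32.6, 33.9 and 39.1 CPM in unmated ones, and its log2 change was 0.40 (SE 0.10, adjusted p = 0.0629) by edgeR. The groups of Top2 did not overlap. The median over the 43 genes was 0.14, against 0.02 over all genes. pim was not tested, since its 0.337 to 1.88 CPM in mated whole guts and 0.176 to 2.17 CPM in unmated ones fell under the filter on low counts. Of the other genes of the pathway, 36 of replication, 62 of mitosis and 34 regulators, 0 were called in whole guts by edgeR, and 2 were higher and 4 lower at p under 0.05 before adjustment.

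The spread between whole gut libraries was wide for the mitotic cyclins, stg and several mitosis genes, but not for every mitosis gene. In mated whole guts polo was at 1.80 ± 1.21 CPM per kb, while scra was at 1.68 ± 0.249 (SD, n = 4). CycB read 40.5, 27.5, 2.69 and 2.24 CPM in mated whole guts and 4.92, 42.9, 2.82 and 5.40 CPM in unmated ones. Mated libraries 1 and 2 and unmated library 2 were high and the other 5 low, so that the groups overlapped over nearly their whole range, and the log2 fold change was 0.40 (95% interval -2.47 to 3.27, adjusted p = 0.918). CycA showed the same libraries, with 24.4, 19.4, 5.25 and 4.43 CPM in mated whole guts and 8.07, 21.6, 4.23 and 7.61 CPM in unmated ones, and a change of 0.38 (95% interval -1.30 to 2.07, adjusted p = 0.857). stg read 7.58, 5.56, 0.770 and 0.785 CPM in mated whole guts and 1.32, 5.65, 0.823 and 1.36 CPM in unmated ones, a change of 0.72 (95% interval -1.43 to 2.87, adjusted p = 0.775). CycE, with 8.59, 5.56, 3.18 and 1.79 CPM in mated whole guts and 3.15, 6.38, 2.53 and 3.66 CPM in unmated ones, followed in part, at 0.30 (95% interval -0.78 to 1.37, adjusted p = 0.826). Mated libraries 1 and 2 and unmated library 2 were also highest for polo, Incenp, borr, tum, thr, pim, Klp67A, fzy and feo. The mitosis genes scra, pbl, Bub1, BubR1 and Klp61F did not follow. PCNA did not divide the libraries in that way. It read 5.23, 7.81, 6.98 and 5.66 CPM in mated whole guts and 6.31, 6.88, 4.06 and 9.30 CPM in unmated ones, a change of -0.05 (95% interval -0.59 to 0.49, adjusted p = 0.949).

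The same 3 libraries carried transcripts of the ovary germline. bru1, a translational repressor gene of oocytes, read 16.4, 10.7, 0.626 and 1.51 CPM in mated whole guts and 1.54, 14.8, 0.706 and 1.03 CPM in unmated ones. osk, which organises germ plasm, read 5.12, 3.05, 0 and 0 CPM in mated whole guts and 0.147, 3.84, 0 and 0.329 CPM in unmated ones, and alphaTub67C, the maternal tubulin, 9.22, 5.91, 0.0963 and 0.504 CPM in mated whole guts and 0.807, 9.28, 0.118 and 0.611 CPM in unmated ones. Of the 21 listed germline markers, 19 were detected, and their sum was 279.5, 257, 192 and 181 CPM in mated libraries and 172, 226, 189 and 190.4 CPM in unmated ones. Genes that the gut also expresses weigh in that sum, since the same list came to 634.8 to 686.4 CPM in mated progenitors and 651.7 to 691.3 CPM in unmated ones, where bru1 was at 0 to 0.223 CPM. esg did not follow, with 15.7, 26.6, 24.7 and 18.4 CPM in mated whole guts and 28.5, 15.9, 24.7 and 23.0 CPM in unmated ones. Enterocyte markers summed to 58357 to 63859 CPM in mated whole guts and 124575 to 165207 CPM in unmated ones, and visceral muscle markers to 1125 to 1504 CPM in mated whole guts and 2291 to 2444 CPM in unmated ones, and 8 of 11 muscle markers were called lower. Without these 3 libraries, a choice made after seeing the data, 0 of 42 genes tested were called, the median was -0.08, and CycB was at -0.82 (SE 0.33, adjusted p = 0.385). The part of germline RNA in the whole gut levels of the 44 genes was not tested.

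**Figure D4:**
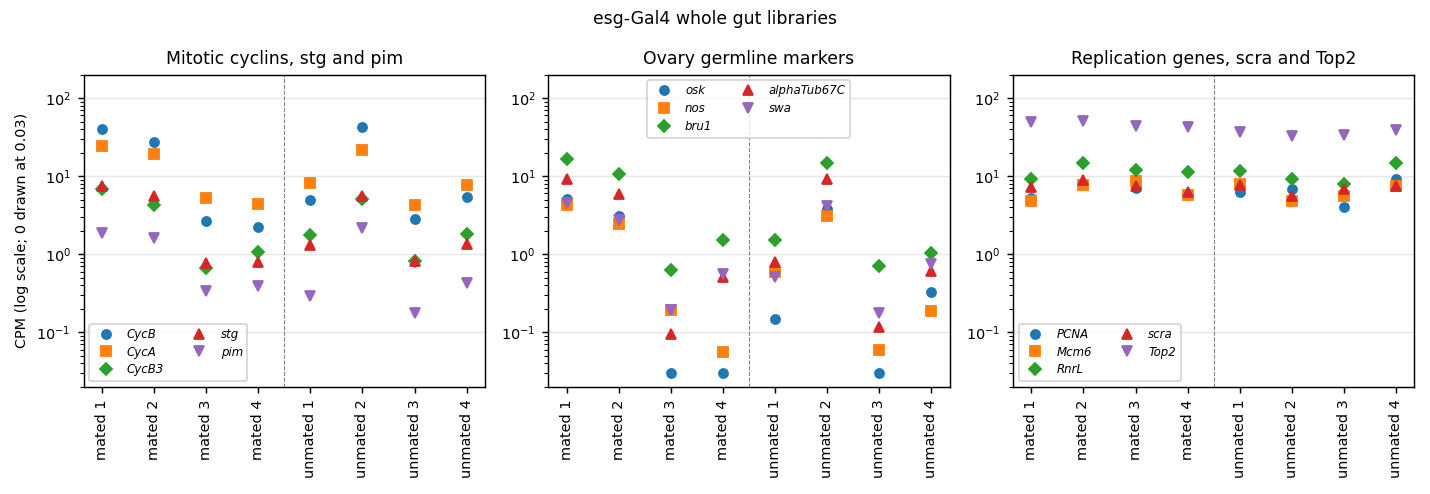
Levels in the 8 esg-Gal4 whole gut libraries in CPM on a log axis, mated left of the dashed line and unmated right of it. The panels show mitotic cyclins with stg and pim, ovary germline markers, and other genes of the 44. CycB lies between 27.5 and 42.9 CPM in mated libraries 1 and 2 and unmated library 2, where the germline markers are high as well, and the genes of the third panel do not set these 3 libraries apart.

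The mating response was set against that of whole guts in a joint fit of progenitors and whole guts. Sorted cells and whole guts also differ in sorting, guts per library and count table, which cannot be told apart from cell type here. For 1 gene, Cdk4, the response was higher in progenitors and for 1 gene, pbl, it was lower, when 9.06% of all 9448 genes were called higher and 12.2% lower. The difference of log2 fold changes was 0.66 (SE 0.17, adjusted p = 0.0138) for Cdk4, which in whole guts read 10.2, 9.26, 11.5 and 9.98 CPM in mated libraries and 12.3, 9.999, 10.8 and 9.11 CPM in unmated ones. It was -0.73 (SE 0.21, adjusted p = 0.0265) for pbl, which read 6.17, 8.00, 7.08 and 9.81 CPM in mated whole guts and 7.26, 5.65, 5.41 and 8.64 CPM in unmated ones. The median difference over the 44 genes was 0.30, against -0.01 over all genes, with 33 values above 0. Of the other genes of the pathway, 15 of 62 mitosis genes had a higher response in progenitors and 1 a lower one, with a median difference of 0.48, against 4 of 36 replication genes higher and 0 lower (median 0.36) and 5 of 34 regulators higher and 1 lower (median 0.13). For CycB the difference was 0.25 (95% interval -2.19 to 2.69, adjusted p = 0.893), and its interval reached far to both sides of 0. Without the 3 whole gut libraries with germline transcripts, 5 genes were higher (CycB, Incenp, borr, polo and scra) and 0 lower, and the CycB difference was 1.496 (SE 0.35, adjusted p = 0.0215). These 3 libraries were chosen after seeing the data and were the highest whole gut libraries in CycB, Incenp, borr and polo. The calls of these genes thus depend on that choice. Over all 9643 genes tested there, 421 were higher and 695 lower. Cdk4 and pbl did not pass there, with differences about as large as with all libraries, 0.61 (SE 0.19, adjusted p = 0.0609) for Cdk4 and -0.77 (SE 0.235, adjusted p = 0.0527) for pbl. Without unmated progenitor libraries 1 and 4, 0 were called in either direction by edgeR, with Cdk4 at 0.54 (SE 0.18, adjusted p = 0.0791) and pbl at -0.74 (SE 0.25, adjusted p = 0.0873). Over all 9484 genes tested there, 216 were called higher and 476 lower, against 856 and 1152 with all libraries. Single libraries moved the count of the 44 genes called higher as well, to 7 without unmated progenitor library 3, 3 without mated whole gut library 1 or unmated library 3, and 2 without mated whole gut library 3. The call of pbl was lost without mated progenitor library 4, mated whole gut library 4 or unmated whole gut library 3.

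Progenitors held higher levels of these transcripts than whole guts of the same mating state. Sorting, guts per library and count table differed with the material, so their part cannot be told apart from that of cell type. Of the 44 genes, 43 were called higher in mated progenitors and 43 in unmated ones, when 43.2% and 42.2% of all genes were, and 0 lower, also at an unadjusted p under 0.05. Every progenitor library lay above every whole gut library of the same state for all 44 genes in mated flies and for 43, all but CycB, in unmated flies, which held for 41.9% of all genes in mated and 38.9% in unmated flies. The median log2 difference was 3.04 in mated and 2.66 in unmated flies. Over all genes tested the median was 0.10 and 0.09 with TMM, and other scalings set it between -0.06 and 0.23 in mated and between -0.02 and 0.18 in unmated flies. All these scalings place the bulk of genes near 0 by construction. This range therefore cannot show how far the scaling as such moves the differences. On the scale of the joint fit, scra had 176 ± 7.40 CPM in mated progenitors and 8.99 ± 1.35 CPM in mated whole guts (SD, n = 4 each), the largest difference at 4.28 (SE 0.13, adjusted p = 5.53e-13). The kinesin gene Klp61F and Incenp were next, at 4.20 and 4.16. At the other end stood Bub1, with 42.6 ± 2.04 CPM in mated progenitors and 28.6 ± 2.54 CPM in mated whole guts and a difference of 0.58 (SE 0.12, adjusted p = 0.000481). E2f1, Dp and Cdk4, which serve growth and G1 in many cells, followed at 0.73, 1.16 and 1.36.

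CycB was the gene that did not pass, with 74.8, 63.7, 76.7 and 74.7 CPM in mated progenitors and 48.0, 33.2, 3.25 and 2.71 CPM in mated whole guts, at 1.72 (95% interval -0.03 to 3.46, adjusted p = 0.0634), and with 36.5, 49.3, 59.9 and 39.4 CPM in unmated progenitors and 6.09, 51.9, 3.42 and 6.51 CPM in unmated whole guts, at 1.47 (95% interval -0.31 to 3.24, adjusted p = 0.115). Without the 3 libraries with germline transcripts the CycB difference was 4.57 (SE 0.29, adjusted p = 2.14e-08) in mated and 3.08 (SE 0.23, adjusted p = 6.65e-08) in unmated flies, and the median over the 44 genes was 3.53 in mated flies. These 3 libraries were chosen after seeing the data and were the highest whole gut libraries in CycB. A larger CycB difference without them was set by that choice, so these values are descriptions. CycB was also called higher in mated flies with upper quartile scaling, at 1.84 (SE 0.82, adjusted p = 0.0489), or without mated whole gut library 1, and in unmated flies without unmated whole gut library 2.

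In Actin-Gal4 control guts mating went with higher transcripts of several replication genes and of CycE. Of 43 genes tested 5 were called higher and 0 lower, when 2.95% of all 9036 genes were called higher, and their median log2 fold change was 0.40, against 0.01 over all genes. At an unadjusted p under 0.05, 20 were higher and 1 was lower, geminin at -0.24. Mated libraries lay above all unmated ones for 4 of the 43 genes, which held for 6.88% of all genes.

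CycE, the cyclin of S phase entry and of endoreplication (FBgn0010382; dm6 chromosome 2L, 15727581 to 15748150, minus strand), read 6.34, 5.41, 5.18 and 3.09 CPM in mated controls and 2.04, 2.25, 2.00 and 3.66 CPM in unmated ones. Mated library 4 and unmated library 4 crossed, and the log2 fold change was 1.03 (SE 0.23, adjusted p = 0.0168). dpa read 12.7, 10.51, 8.96 and 7.03 CPM in mated controls and 6.43, 6.79, 6.55 and 6.88 CPM in unmated ones, without overlap, a change of 0.56 (SE 0.14, adjusted p = 0.0258). RnrL, the large subunit of ribonucleotide reductase, read 25.1, 19.3, 17.1 and 13.5 CPM in mated controls and 11.1, 11.7, 12.7 and 13.2 CPM in unmated ones, a change of 0.63 (SE 0.17, adjusted p = 0.0372). Its mated libraries all lay above the unmated ones, library 4 by little. Mcm7 read 11.8, 9.05, 6.53 and 5.35 CPM in mated controls and 5.16, 4.66, 4.66 and 6.02 CPM in unmated ones, a change of 0.69 (SE 0.19, adjusted p = 0.0452). An antisense RNA gene overlaps 81.7% of the exon bases of Mcm7, and without a stated strand setting reads of the 2 cannot be told apart. The mitotic gene fzy was called as well, with 2.17, 1.38, 1.40 and 0.944 CPM in mated controls and 0.706, 0.854, 0.736 and 0.914 CPM in unmated ones and a change of 0.89 (SE 0.26, adjusted p = 0.0483).

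Others missed the threshold. PCNA read 16.7, 13.4, 9.37 and 7.92 CPM in mated controls and 6.20, 6.41, 6.38 and 10.1 CPM in unmated ones, at 0.72 (95% interval 0.28 to 1.16, adjusted p = 0.0505). stg read 2.46, 1.69, 1.68 and 0.629 CPM in mated controls and 0.483, 0.893, 0.596 and 0.866 CPM in unmated ones, at 1.21 (95% interval 0.39 to 2.02, adjusted p = 0.0685). Mated library 4 was again the lowest of its group in both genes. CycA read 8.45, 7.48, 6.78 and 4.40 CPM in mated controls and 5.42, 4.85, 5.04 and 5.49 CPM in unmated ones, at 0.39 (95% interval 0.08 to 0.70, adjusted p = 0.114), and CycB read 6.22, 5.64, 4.81 and 2.67 CPM in mated controls and 2.79, 3.61, 3.19 and 4.24 CPM in unmated ones, at 0.50 (95% interval 0.03 to 0.97, adjusted p = 0.178). None of these 4 passed the test.

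The count in Actin-Gal4 controls depended on single libraries. Mated library 4 was the lowest of its group for 35 of the 44 genes, and the sum over all 44 was 213, 192, 177 and 149.9 CPM per kb in mated controls and 146, 149.8, 154 and 163 CPM per kb in unmated ones. Enterocyte markers ran the other way in the mated libraries, with sums of 82612, 101561, 133520 and 157889 CPM in mated controls and 78971, 73563, 126927 and 123898 CPM in unmated ones, which in the mated group is the reverse order of the sum over the 44 genes. The germline marker bru1 was high in mated library 1, with 1.945 CPM, against 0.576 to 0.740 CPM in the other 3 mated controls and 0.388 to 0.743 CPM in unmated ones, and mated library 1 was the highest of its group for 31 of the 44 genes. The germline marker alphaTub67C was also highest in mated library 1, whereas osk and nos were highest in mated library 3 and vas and swa in mated library 4. osk was at 0 to 0.329 CPM in mated controls and 0.0481 to 0.111 CPM in unmated ones. The summed germline list read 209.5, 208.6, 217.6 and 209.2 CPM in mated controls and did not set mated library 1 apart. The part of these transcripts in the result was not tested. The number of genes called higher was 16 without mated library 4, 0 without mated library 1 or unmated library 2, 1 without mated library 2 or unmated library 1 or 3, 3 without mated library 3 and 4 without unmated library 4. CycE was called in each of these settings but the 2 with 0 calls. DESeq2 called 10 higher, and a fit of the 2 groups alone called 1, Cdk4. Over all genes, edgeR called 287 higher without mated library 4, 149 without mated library 1 and 100 without unmated library 2. With all libraries it called 267. Among other genes of the pathway, 5 of 36 replication genes rose, led by the polymerase genes DNApol-alpha180 (0.67, SE 0.15, adjusted p = 0.0164), DNApol-epsilon255 and DNApol-epsilon58, while of 62 other mitosis genes dgt6 rose and Kmn2 fell, and of 33 other regulators 1, ago, rose. Of all 9036 genes 2.95% were called higher, so the counts for other mitosis genes and regulators do not set them apart.

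In the guts labelled EcR RNAi no change of the 43 genes with mating was called by edgeR, in a comparison in which 10.8% of all genes were called, and DESeq2 called 0 as well. At an unadjusted p under 0.05, 3 were higher (RnrL, CycD and stg) and 1 was lower (dap), and the median was 0.10. stg read 1.24, 1.89, 1.42 and 0.801 CPM in mated guts and 0.984, 0.443, 0.807 and 0.466 CPM in unmated ones, at 0.96 (95% interval 0.13 to 1.79, adjusted p = 0.131). CycE read 6.61, 5.65, 4.68 and 5.03 CPM in mated guts and 3.46, 4.97, 4.30 and 3.36 CPM in unmated ones, at 0.45 (95% interval -0.03 to 0.93, adjusted p = 0.217). Both values were above 0, and the groups of both overlapped. PCNA read 12.5, 12.9, 9.32 and 11.8 CPM in mated guts and 9.54, 9.21, 8.70 and 8.59 CPM in unmated ones, at 0.37 (95% interval -0.07 to 0.81, adjusted p = 0.285). CycA, with 6.86, 8.58, 7.66 and 7.97 CPM in mated guts and 7.61, 6.84, 7.31 and 7.91 CPM in unmated ones, was at 0.07 (95% interval -0.24 to 0.37, adjusted p = 0.825), and CycB, with 4.84, 5.69, 4.39 and 4.01 CPM in mated guts and 5.10, 3.201, 4.30 and 4.19 CPM in unmated ones, at 0.17 (95% interval -0.30 to 0.64, adjusted p = 0.688). Of the other genes of the pathway, cal1, a centromere assembly gene (-0.46, SE 0.11, adjusted p = 0.0164), and tws, a regulatory subunit gene of protein phosphatase 2A (-0.29, SE 0.07, adjusted p = 0.0186), fell and 0 rose, by edgeR, with 2 higher and 9 lower over the 3 lists before adjustment at p under 0.05.

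The test of the difference between both mating responses, the interaction of genotype and mating, called none of the 43 genes and 0% of all 9036 genes by edgeR, while DESeq2 called 0 of the 43 and 1 of all genes. At an unadjusted p under 0.05, 0 were higher and 3 lower, with a smaller response in the libraries labelled EcR RNAi: fzy at -1.003 (95% interval -1.76 to -0.24, adjusted p = 0.59), dpa at -0.54 (95% interval -0.95 to -0.12, adjusted p = 0.59) and Mcm7 at -0.62 (95% interval -1.21 to -0.04, adjusted p = 0.599). The median over the 43 genes was -0.22, against -0.002 over all genes. For CycE the interaction was -0.57 (95% interval -1.25 to 0.10, adjusted p = 0.653).

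Between genotypes, 3 of 43 genes were higher in unmated guts labelled EcR RNAi than in unmated controls and 0 lower. This share was no larger than the 7.95% of all genes called higher, so it does not set the 43 genes apart. Before adjustment, 5 were higher and 0 lower at p under 0.05. CycA read 7.61, 6.84, 7.31 and 7.91 CPM in the guts labelled EcR RNAi and 5.42, 4.85, 5.04 and 5.49 CPM in controls, without overlap, a log2 difference of 0.51 (SE 0.15, adjusted p = 0.0281). For fzy the values were 1.46, 1.43, 1.12 and 1.86 CPM in the guts labelled EcR RNAi and 0.706, 0.854, 0.736 and 0.914 CPM in controls, a difference of 0.87 (SE 0.26, adjusted p = 0.034). For dpa they were 10.3, 8.81, 8.88 and 8.33 CPM in the guts labelled EcR RNAi and 6.43, 6.79, 6.55 and 6.88 CPM in controls, a difference of 0.45 (SE 0.14, adjusted p = 0.0418). fzy and dpa were also called for mating in controls, and both comparisons share the 4 unmated control libraries. With single libraries left out, 0 to 2 genes were called, with 0 without unmated control library 2 or 3 or library 1 or 4 of the unmated guts labelled EcR RNAi, and 1 without unmated control library 1 or library 2 or 3 of the unmated guts labelled EcR RNAi. With upper quartile scaling dpa was not called, at 0.415 (SE 0.15, adjusted p = 0.0737). CycB, CycE, stg and PCNA, whose libraries are given above, did not pass, at 0.29 (95% interval -0.18 to 0.76, adjusted p = 0.411), 0.70 (95% interval 0.21 to 1.19, adjusted p = 0.0526), -0.04 (95% interval -0.90 to 0.82, adjusted p = 0.961) and 0.32 (95% interval -0.13 to 0.77, adjusted p = 0.331).

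In mated guts 0 of 43 genes were called between those labelled EcR RNAi and controls by edgeR, when 8.52% of all genes were called. At an unadjusted p under 0.05, 0 were higher and 2 lower, Cdk4 and dap, and DESeq2 called 1 lower, Cdk4. Cdk4 read 16.7, 15.0, 14.3 and 10.7 CPM in mated guts labelled EcR RNAi and 17.4, 17.1, 19.7 and 19.3 CPM in mated controls. All 4 libraries labelled EcR RNAi were below the controls, at -0.37 (95% interval -0.63 to -0.11, adjusted p = 0.0726). PCNA, CycA, CycB, CycE and stg were at -0.03, 0.19, -0.04, 0.13 and -0.29 on the log2 scale, with adjusted p-values between 0.531 (CycA) and 0.957 (PCNA).

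Among the other genes of the pathway, Psf1, another GINS subunit gene, was lower in the guts labelled EcR RNAi in both mating states, with 1.68 ± 0.422 CPM in mated guts labelled EcR RNAi and 3.70 ± 0.608 CPM in mated controls (SD, n = 4 each), a difference of -1.13 (SE 0.20, adjusted p = 0.00297), and -1.32 (SE 0.20, adjusted p = 0.000602) in unmated guts. tim, which was listed with replication genes by its name but is the clock gene timeless, was higher in both, by 1.01 (SE 0.18, adjusted p = 0.00291) in mated guts and 1.09 (SE 0.18, adjusted p = 0.000972) in unmated ones. SkpA, a subunit gene of the SCF ubiquitin ligase, was higher in mated guts labelled EcR RNAi, at 0.41 (SE 0.07, adjusted p = 0.00225). In unmated guts Cdc6 of replication licensing, the condensin gene Cap-G, ida, a subunit gene of the anaphase promoting complex, cal1 and ago were higher and Cks85A was lower. By edgeR, 2 of 36 other replication genes, 4 of 62 other mitosis genes and 1 of 33 other regulators were called higher in unmated guts. None of these shares was above the 7.95% of all genes called higher. In mated guts 1, 0 and 1 were called higher, when 8.52% of all genes were called in either direction.

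**Figure D5:**
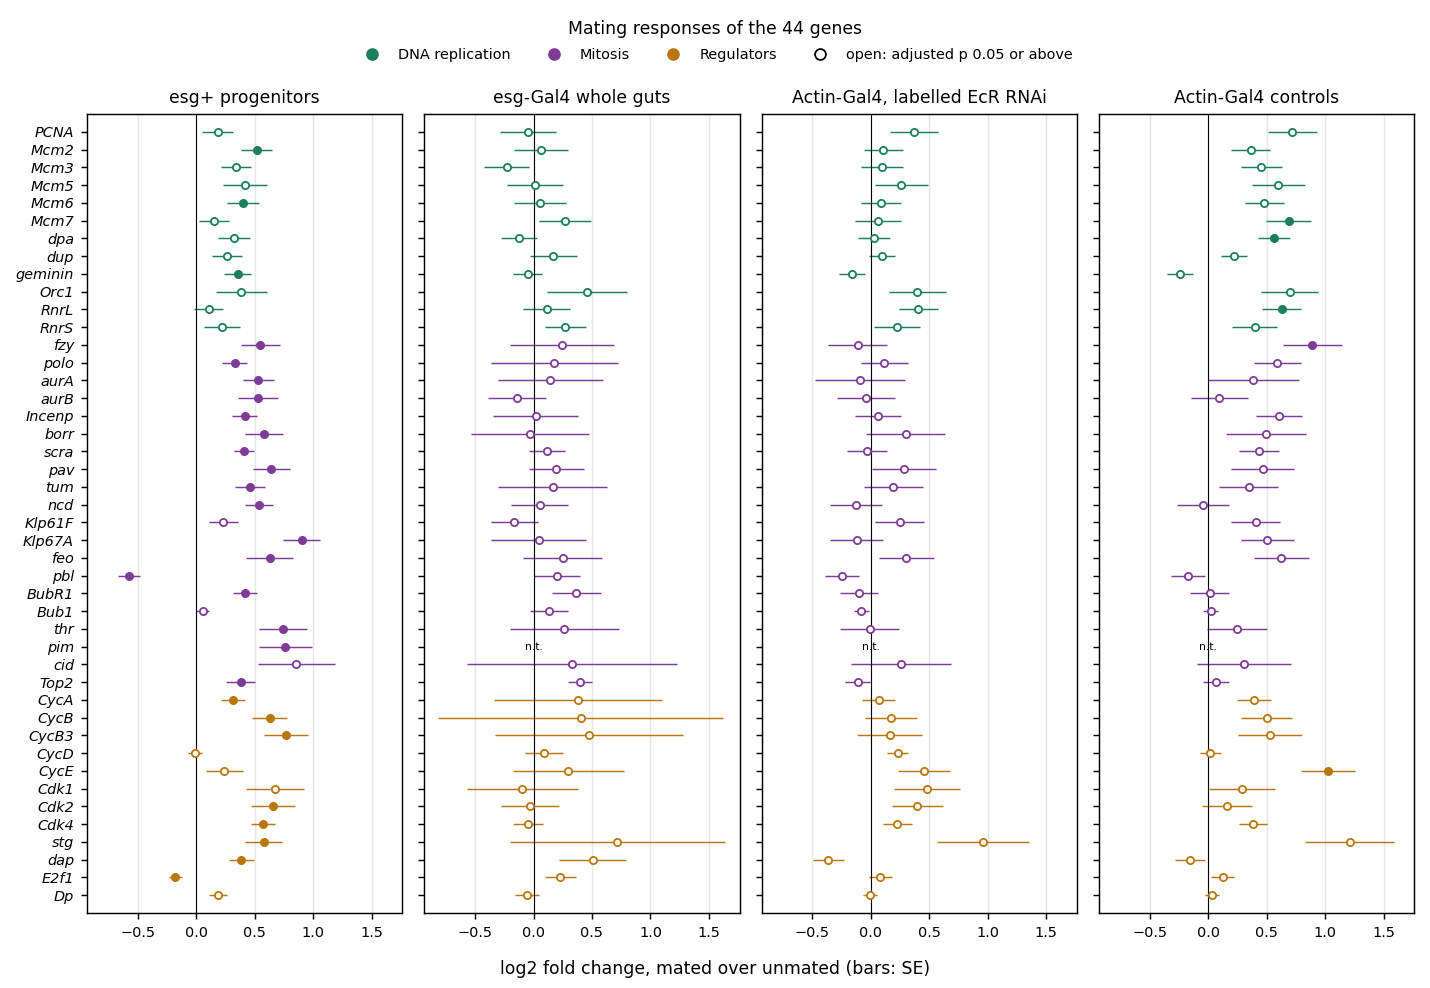
Log2 fold change with mating of each of the 44 genes, mated over unmated, in progenitors, whole guts, guts labelled EcR RNAi and Actin-Gal4 controls, with SE bars, filled where the adjusted p was under 0.05, and n.t. where a gene was not tested. Filled symbols number 28 in progenitors, 5 in Actin-Gal4 controls and 0 in the other panels, and the bars of CycB, CycA, CycB3 and stg in whole guts are the widest of that panel together with cid.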

How the data were processed

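Poly(A) RNA was sequenced with a directional kit per the labels' protocols, and the authors deposited raw counts per gene. The submitters' processing notes name STAR, HTSeq and DESeq2 and the builds BDGP6 and dm6. Versions, the role of each tool and how strand was handled in counting are not stated there. Of 47 samples, 32 were analysed, and 15 labelled Myo1A were not analysed here. A further 16 columns were not used. Transposable element entries, 501 to 1059 per table and 0.0312% to 0.22% of counts, were removed.

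Each table was tested with edgeR 4.0.16 in R 4.3.3 (quasi-likelihood, robust, TMM, a filter with minimum counts of 10 and, in total, 15, Benjamini-Hochberg adjusted p under 0.05 over all genes). The 4 Actin-Gal4 groups entered 1 fit, and progenitors and esg-Gal4 whole guts a joint one. The SE is the size of the log2 fold change over the root of F, and 95% intervals use the t distribution with the degrees of freedom of the fit. DESeq2 1.42.0 was an alternative. Exon lengths came from the BDGP6.54 annotation, and exons of 15 of the 44 genes overlap another gene, 0 of them on the same strand. Members and lists were chosen with earlier results of these data known. Values per library are given for up to 4 called genes per role and comparison with the smallest adjusted p, and for CycA, CycB, CycE, stg and PCNA in any case. The code was tested on simulated data.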

Additional observations from a re-analysis of the deposited data

Results flagged for a closer look

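Among 376 sets of 4 libraries examined, 1 library stood far from the other 3 in 19, or 5.05%. The rule is set to flag 1 in 20 by chance. The sets share libraries and several flags fell on the same library, so this share cannot tell chance from library effects. In the esg-Gal4 whole guts, unmated library 2 was high for polo (8.405 CPM, against 3.293 to 3.898 in the other 3), Incenp (6.67, against 3.302 to 3.764), borr (3.695, against 1.294 to 1.688), thr (2.32, against 0.9997 to 1.174), pim (2.17, against 0.1764 to 0.4226), CycB (42.9, against 2.823 to 5.4) and stg (5.65, against 0.8233 to 1.362). The same library was 1 of the 3 with germline transcripts. Mated whole gut library 1 was high for Cdk2 (3.83 CPM, against 2.242 to 2.358), and mated whole gut library 4 was low for aurB (1.29, against 1.781 to 1.867).

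In the Actin-Gal4 controls, unmated library 4 was high for PCNA (10.06 CPM, against 6.203 to 6.406 in the other 3), Mcm5 (4.43, against 3.106 to 3.269), CycD (14.3, against 11.96 to 12.07) and CycE (3.66, against 1.997 to 2.252), and unmated library 2 was high for ncd (4.81, against 3.609 to 3.789). In the guts labelled EcR RNAi, unmated library 4 was low for Mcm6 (6.83 CPM, against 8.27 to 8.519), unmated library 3 was high for polo (4.71, against 3.862 to 3.983) and mated library 2 was high for Top2 (36.9, against 34.43 to 34.73). The summed replication genes were low in mated library 3 of that genotype (67.7 CPM per kb, against 89.76 to 93.07) and high in unmated library 1 (90.7, against 69.42 to 71.47).

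For 2 genes the mating response of progenitors differed from that of whole guts in the joint edgeR test, pbl with a difference of -0.73 and Cdk4 with one of 0.66 on the log2 scale.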

How the results depend on the processing

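Over the 124 results for single genes and their 1919 values under alternatives, 1762 kept direction and call, 157 kept the direction without passing the threshold and 0 reversed. DESeq2 called 1 gene higher in whole guts, 10 in Actin-Gal4 controls, 1 lower between genotypes in mated guts and 2 lower for progenitors minus whole guts. In progenitors 1 gene was lower with upper quartile scaling and 1 with no filter. The Actin-Gal4 control groups fitted alone gave 1 higher. Without unmated progenitor libraries 1 and 4, chosen after seeing the data, mating in progenitors gave 9 higher and 1 lower, and progenitors minus whole guts 0 and 0. Over all genes tested there, mating in progenitors gave 417 higher and 885 lower, and progenitors minus whole guts 216 and 476. Without the 3 whole gut libraries with germline transcripts, also chosen after seeing the data, progenitors minus whole guts gave 5 higher and 0 lower, and the median of mated progenitors against whole guts was 3.53. These counts differ by construction in samples, filter or scaling, and other causes were not tested.

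With each library left out in turn, mating in progenitors gave 12 to 33 higher and 1 to 2 lower (median 0.35 to 0.50), in Actin-Gal4 controls 0 to 16 higher (0.26 to 0.55), in guts labelled EcR RNAi 0 to 1 lower (0.03 to 0.15), and in whole guts 0 (-0.04 to 0.29). Between genotypes it gave 0 to 2 higher in unmated guts (0.10 to 0.16) and 0 to 1 lower in mated guts (-0.20 to 0.06), with an interaction median of -0.41 to -0.11. Progenitors minus whole guts gave 1 to 7 higher and 0 to 2 lower (0.12 to 0.48). Progenitors against whole guts gave 43 to 44 higher in mated flies (2.98 to 3.13) and 42 to 44 in unmated flies (2.50 to 2.92).

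The labels give groups the same replicate numbers, but same-numbered libraries did not deviate together in every pair (correlations of -0.129 to 0.284), so the numbers were not taken as pairs. A fit with the replicate block called 30 higher and 2 lower for mating in progenitors and 1 lower, Cdk4, between genotypes in mated guts. For mating in Actin-Gal4 controls the block fit called 6 higher. Over all genes it called 415 higher and 488 lower there, against 267 and 354 without the block. It called 44 higher, CycB included, for progenitors against whole guts, with CycB at 2.25 (adjusted p = 0.0203) in mated and 2.05 (adjusted p = 0.0342) in unmated flies. Genes near 1 CPM, such as fzy, stg and pim in whole guts, rest on few counts.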

Other observations

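In Actin-Gal4 controls the most abundant of the 44 transcripts per length was RnrS, at 40.7 CPM per kb in mated and 30.9 CPM per kb in unmated guts. The summed germline list was 208.3 to 217.6 CPM over the mated Actin-Gal4 libraries of both genotypes and 186 to 207.4 CPM over the unmated ones. Of the fat body markers tested, 1 of 6 fell with mating in progenitors and 1 of 5 rose with mating in Actin-Gal4 controls.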
